A study of Mus musculus with 4 samples.

Results

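Chromosome 13 was followed along its length by array comparative genomic hybridisation (aCGH), which lets test and reference DNA with different dyes compete for probes on a slide. The probes were all non-control probes that the array's design places on chromosome 13 of mouse build mm9. The 7 probes named for Hist1h histone genes were left out, which gave 2260 of 52385 autosomal probes. They ran from base 3323109 to base 120274738, a span of 117 Mb, with a median spacing of 21.9 kb. The design names a gene for 1758 of them, or 798 genes in all, and none for the other 502. The material was DNA of liver cells from 4 samples, all titled TAK1LPC-KO_RIP3-_-. That title is read here as TAK1-deficient liver parenchymal cells with a second knockout of Rip3. On this reading every sample carried both alterations, and no sample had either alone. The DNA came from formalin-fixed, paraffin-embedded sections and carried Cy5, and the reference, a pool of 4 normal livers, carried Cy3. Sex, age, strain and the driver of the parenchymal deletion are not given in the sources used here. The labels do not state whether the 4 samples are separate animals, and the p-values reflect the spread among these 4 alone, which may be technical. The pool was the only control, and its ratio against 0 carries no spread among control livers. The dyes were not swapped, so the direction of every ratio rests on the dyes in the labels, and a dye effect of a probe remains in it.

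TAK1 is a kinase that relays signals from the tumour necrosis factor (TNF) receptor and other innate immune receptors, and its loss in liver parenchymal cells of mice is known to cause cell death, inflammation and liver tumours. RIP3 is the kinase that drives necroptosis, and it is engaged by RIPK1, whose gene Ripk1 lies on chromosome 13. Mouse chromosome 13 also carries Tert, the catalytic subunit of telomerase, and large clusters of related genes that encode prolactin-like hormones, serine protease inhibitors, vomeronasal receptors and zinc finger proteins. Hepatocytes are often polyploid, and aCGH centred on each array's median reads a chromosome against the others, so a doubling of the whole genome leaves no trace in it.

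The log2 ratio of a probe was the log2 of sample over pool, centred on each array so that the median autosomal probe was at 0. The probes themselves are short stretches of the chromosome, and those with the most extreme means among the 1854 that were well above background in both channels on all 4 arrays are given to show what the ratios were read from. Each is written 5′ to 3′ as the scanner files list it, the strand is not given there, and capitals mark runs of at least 4 G or C bases. The 5 probes with the highest means were as follows.
no gene name, chr13:82978099-82978158: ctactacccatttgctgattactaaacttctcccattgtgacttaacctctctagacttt
Paip1, chr13:120238704-120238763: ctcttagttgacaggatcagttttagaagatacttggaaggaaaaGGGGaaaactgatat
Atxn1, chr13:46035984-46036043: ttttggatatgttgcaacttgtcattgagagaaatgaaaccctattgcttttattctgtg
no gene name, chr13:3345824-3345883: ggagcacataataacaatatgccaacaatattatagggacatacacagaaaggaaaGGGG
Fcho2, chr13:99525498-99525557: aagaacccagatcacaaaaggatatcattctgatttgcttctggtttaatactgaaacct
The first of these, in a stretch with no gene name, read 2.22, 2.52, 2.21 and 2.09 on replicates 1 to 4, and the next, in Paip1, which encodes a partner of the poly(A)-binding protein, read 1.30, 1.20, 1.79 and 1.93. The Atxn1 probe ranged from 0.77 to 1.74 over the arrays, and the remaining pair had means of 1.27 and 1.19. All 5 were above 0 on every array. The 5 probes with the lowest means were as follows.
Pdlim7, chr13:55608684-55608732: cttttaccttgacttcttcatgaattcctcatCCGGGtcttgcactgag
AK180586, chr13:58011307-58011366: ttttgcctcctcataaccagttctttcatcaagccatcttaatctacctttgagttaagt
Ddx41, chr13:55636915-55636965: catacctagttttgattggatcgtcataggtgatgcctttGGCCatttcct
no gene name, chr13:69144088-69144147: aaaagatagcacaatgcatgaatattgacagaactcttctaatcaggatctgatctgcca
Mccc2, chr13:100781178-100781237: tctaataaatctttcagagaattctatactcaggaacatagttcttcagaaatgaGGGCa
The Pdlim7 probe lay between -1.12 and -1.01 on the 4 arrays, and the AK180586 probe read -1.24, -0.78, -0.98 and -1.29. The Ddx41 probe, whose gene encodes an RNA helicase that senses DNA, had a mean of -0.94. The unnamed probe had a mean of -0.86, and the Mccc2 probe, in a gene of leucine breakdown, had a mean of -0.85. Those of Pdlim7 and Ddx41 lie in the same stretch near the middle of the chromosome, which is described further on. Between these extremes the probes spread widely. On single arrays the SD over chromosome 13 probes was 0.42 to 0.47, and the middle of that spread lay above 0.

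The bulk of chromosome 13 sat above the autosomal median on every array. Its median log2 ratio was 0.15 on replicate 1, 0.14 on replicate 2, 0.21 on replicate 3 and 0.21 on replicate 4, a mean of 0.18 ± 0.04 (SD, n = 4). No array was near 0, and the adjusted p of limma's moderated test over the 19 autosomes was 2.2e-06. The test called 31.6% of autosomes higher. It also called chromosomes 1, 2, 3, 10, 11, 12, 15, 17, 18 and 19 lower. Chromosomes 2 and 11 had a limma adjusted p of 1.6e-06, so a small p does not set chromosome 13 apart. The exact sign-flip test over 4 arrays gave 0.125, the smallest p it can give. A log2 ratio of 0.18 corresponds to a sample-over-pool signal 1.13 times that of the median autosomal probe, or 13.1% more. A count of 3 copies in every cell against 2 in the pool would give 0.58. Whether any copy was gained was not tested. In bulk DNA without a dye swap, a gain in a share of the cells, a compressed ratio in all of them and a dye effect cannot be told apart.

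The shift was carried by many probes. Between 63% and 70.2% of chromosome 13 probes lay above 0 on an array, against 49.1% to 49.4% of the other autosomal probes. On all 4 arrays at once, 937 of the 2260 probes (41.5%) were above 0, against 25.9% of the 50118 probes on other autosomes. Probes below 0 on all 4 arrays numbered 283 (12.5%), against 27.3% elsewhere. Probes with a gene name had a median of 0.18 ± 0.04 and those without one 0.16 ± 0.03 (SD, n = 4). Set against probes of the same kind on other autosomes, the differences were 0.19 ± 0.04 and 0.18 ± 0.04.

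Chromosome 13 had the highest mean of the 19 autosomes, and the difference from its neighbours in that order was small. Each array's chromosome 13 median minus that of another autosome was tested with limma, with 1 pooled SE of 0.021. By this test chromosome 13 was higher than 17 of the other 18 autosomes (94.4%). The exception was chromosome 8, from which it differed by -0.008, -0.008, 0.037 and 0.042, a mean of 0.016 ± 0.027 (SD, n = 4; 95% interval -0.027 to 0.058; limma adjusted p 0.46). On slide 1 chromosome 8 was the higher of the pair and on slide 2 chromosome 13 was, so the first place in the order held on slide 2 alone. Against chromosome 14 the differences were 0.032, 0.025, 0.105 and 0.089, a mean of 0.063 ± 0.040 (limma adjusted p 0.0045). That call was lost with the slide means as samples (limma adjusted p 0.105), with the slide as a random block (limma adjusted p 0.117) and without replicate 3 (limma adjusted p 0.0599). Against chromosome 4 the mean difference was 0.087 ± 0.020 (limma adjusted p 1.5e-04).

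**Figure D1:**
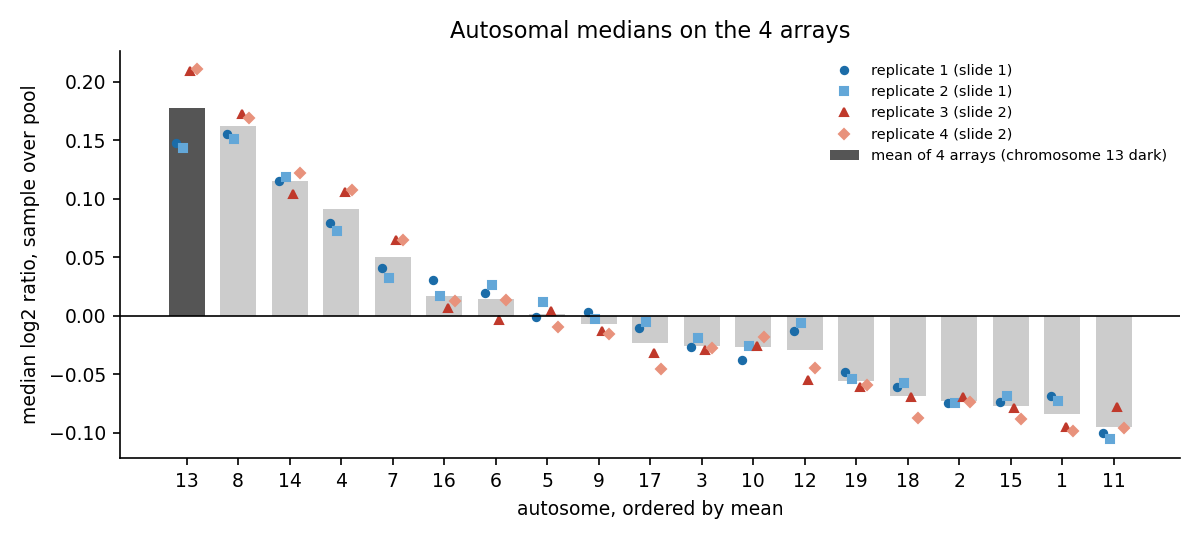
Median log2 ratio (vertical axis, sample over pool) of each autosome (horizontal axis, ordered by mean), with bars for the mean of 4 arrays and points for single arrays, coloured by slide. Chromosome 13 is the dark bar at 0.18, with both slide 2 arrays above both slide 1 arrays, and chromosome 8 follows at 0.16.

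Ratios above the pool ran along most of the chromosome and were lowest in a stretch near its middle. In windows of 5 Mb, numbered from the centromeric end, 22 of 25 were higher than the pool at a limma adjusted p under 0.05 and a mean of at least 0.1, where the same rule called 24.4% of all 499 autosomal windows. None of the 25 was lower, against 13.8% of all windows, and none was below 0 at an unadjusted limma p under 0.05 either. By the same rule of p and size, 23 of 27 windows were higher on chromosome 8, 15 of 24 on chromosome 14 and 21 of 32 on chromosome 4. On all 4 arrays 23 of the 25 windows were above 0. So were 23 of 27 on chromosome 8, 22 of 24 on chromosome 14 and 24 of 32 on chromosome 4, but none on chromosomes 1 and 11.

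Window 6, from 25 to 30 Mb, had the highest mean. It holds the prolactin gene cluster and read 0.23, 0.28, 0.31 and 0.42 over the arrays, a mean of 0.31 ± 0.08 (SD, n = 4; limma adjusted p 2.7e-06). Window 18, from 85 to 90 Mb, followed with 0.28, 0.28, 0.21 and 0.36 and a mean of 0.28 ± 0.06, and window 17 beside it had a mean of 0.27 ± 0.07. Windows 16 to 18 formed a run of high values in a stretch poor in named genes, with 19, 13 and 9 genes. The differences among these high windows were within the spread of their arrays. Their order depended on the processing. After GC correction window 25, which starts at 120 Mb and holds 15 probes, was highest at 0.42, and window 6 had 0.27.

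The lowest windows were neighbours. Window 11, from 50 to 55 Mb, read -0.04, 0.01, 0.07 and 0.09, a mean of 0.03 ± 0.06 (limma adjusted p 0.25). Window 12, from 55 to 60 Mb, read 0.05, -0.03, 0.08 and 0.13, a mean of 0.06 ± 0.06 (limma adjusted p 0.06). It was the window richest in named genes, with 76, and its probes had a mean GC content of 37.2%, against a median of 36.1% over the windows of the chromosome. The third window that was not called, window 24 from 115 to 120 Mb, had a mean of 0.09 ± 0.03, under the size limit, with a limma adjusted p of 0.0012.

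In windows of 2 Mb, 50 of 58 were called higher and none lower. Of the 8 not called, 3 lay in this low stretch and the others at 30 to 32, 36 to 38, 100 to 102, 114 to 116 and 116 to 118 Mb, with means from 0.06 to 0.09. The window from 36 to 38 Mb read -0.10 on replicate 1 (mean 0.07 ± 0.13; limma adjusted p 0.20). In the low stretch, the window from 50 to 52 Mb had a mean of 0.0016 ± 0.051 and that from 54 to 56 Mb a mean of 0.022 ± 0.082, with limma adjusted p of 0.97 and 0.61. Between them the window from 52 to 54 Mb stood at 0.13 ± 0.08. The window from 54 to 56 Mb held 47 named genes on 99 probes, among them Cdhr2, Pdlim7 and Ddx41. From 48 to 50 Mb the mean was 0.20 ± 0.02, and from 62 to 64 Mb it was 0.32 ± 0.06, so the dip had higher values on either side of it. Over the 25 windows of 5 Mb, the mean ratio had a Pearson correlation of -0.49 with the number of named genes and of -0.23 with GC content, and over the 474 windows of other autosomes these were -0.41 and -0.44. Windows share their 4 libraries, and these correlations are descriptions across regions only. After GC correction window 11 had a mean of 0.03 and window 12 a mean of 0.11. Beyond these values, the part of GC content and gene density in the dip was not tested.

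**Figure D2:**
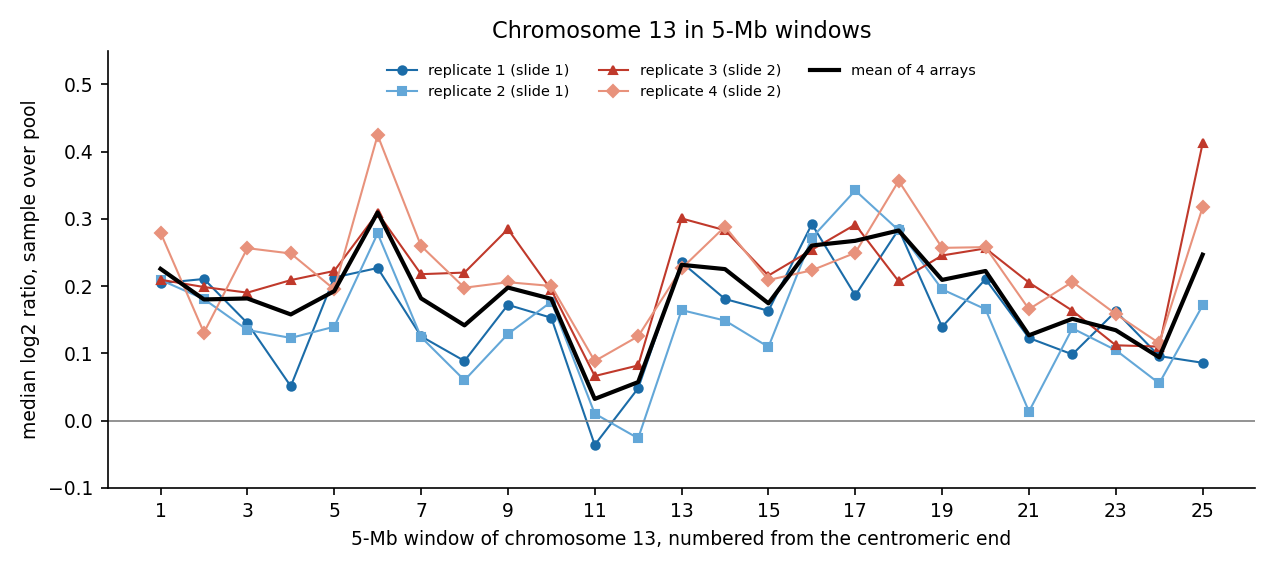
Median log2 ratio (vertical axis, sample over pool) of the 25 windows of 5 Mb along chromosome 13 (horizontal axis, window number from the centromeric end), with a coloured line for each array and a black line for their mean. The mean stays above 0 throughout, is highest in window 6 at 0.31 and lowest in windows 11 and 12 at 0.03 and 0.06.

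The ratios of chromosome 13 differed between the array slides. Replicates 1 and 2 were on slide 1 and replicates 3 and 4 on slide 2. The median was 0.15 on slide 1 and 0.21 on slide 2, a difference of 0.064, whereas arrays of the same slide differed by 0.0044 and 0.0013. Its limma adjusted p was 3.6e-11, from 1 SE of 0.0063 pooled over all autosomes, with 26.3% of autosomes called higher on slide 2 by that test. The exact test of both arrays against both gave 0.333, the smallest p it can give. Slide 2 exceeded slide 1 in 22 of 25 windows, where 48.3% of all windows did. Both slide 2 arrays exceeded both slide 1 arrays in 18 of the 25, where 23.4% of all windows did. In the limma test no single window differed between slides after adjustment over 499 windows. At an unadjusted p under 0.05, 12 of the 25 did, against 13.8% of all windows. Among genes, 493 of 798 (61.8%) had the higher mean on slide 2, where 50.8% of all genes did, and no gene of any autosome passed limma's adjusted p. At an unadjusted p under 0.05, 104 of the 798 differed between slides, against 10.7% of all genes.

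This slide difference was present in the channel labelled as the pool. For each channel alone, a probe's log2 signal was expressed as its deviation from that probe's own mean over the 4 arrays. In the pool channel the median deviation of chromosome 13 probes was 0.027 and 0.029 on slide 1 and -0.032 and -0.027 on slide 2. On each array the medians of the other autosomes were of both signs. Relative to them, the pool signal was thus lower on slide 2 by 0.057 (limma adjusted p over the autosomes 4.6e-17). That p rests on 1 SE of 0.0036 pooled over all autosomes, not on the spread of chromosome 13. With 2 arrays on each slide, no exact test could give a p under 0.333. The test called 26.3% of autosomes lower on slide 2 in this channel, and 84.2% in either direction. In the sample channel the deviations were 0.0001, 0.0008, 0.0010 and 0.0013, a slide difference of 0.0007 (limma adjusted p 0.87). No autosome passed in the sample channel by limma's adjusted p, and 3 of 19 (15.8%) did at an unadjusted p under 0.05. With probes well above background only, the pool channel differed by -0.060 (limma adjusted p 3.0e-05) and the sample channel by 0.0016 (limma adjusted p 0.82).

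The windows had the same order. In the pool channel both slide 2 arrays were below both slide 1 arrays in 21 of the 25 windows of chromosome 13, where 25.5% of all autosomal windows were. In the sample channel they were below in 7 of the 25 and above in 4, where the shares over all windows were 20.6% and 19.4%. Of the 19 autosomes, chromosome 13 had the pool-channel slide difference of largest size. The labels describe 1 pool for all arrays, and whether the DNA in the Cy3 channel was the same on both slides was not tested. Whether sample and pool carried the dyes that the labels give was not tested either, and the direction of every ratio rests on it. The channel values concern only the difference between slides, since the level that both slides share cannot be divided between the channels in this way.

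**Figure D3:**
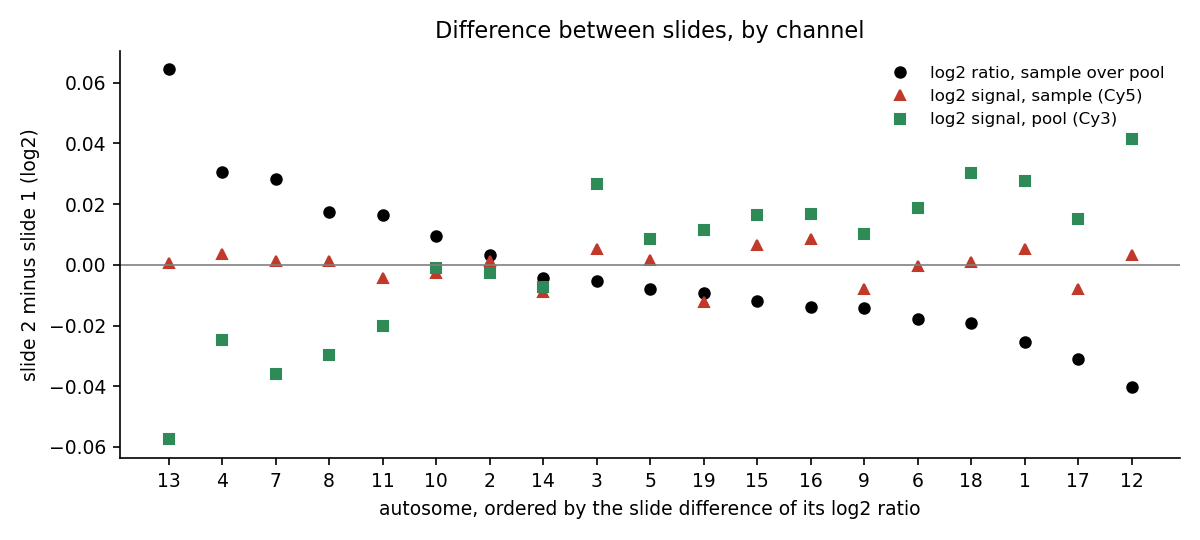
Slide 2 minus slide 1 (vertical axis, log2) of each autosome (horizontal axis, ordered by the difference of its ratio), with circles for the ratio, triangles for the sample channel and squares for the pool channel. Chromosome 13 has the highest circle at 0.064 and the lowest square at -0.057, while its triangle lies at 0.0007.

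Chromosome 13 lay above the other autosomes at every level of GC content and brightness. In 4 classes of probe GC content its median minus that of other autosomes was 0.17 to 0.21, and in 5 classes of the GC content of nearby probes it was 0.15 to 0.19. In 5 classes of pool signal the difference was 0.13 ± 0.03 (SD, n = 4) for the dimmest and 0.20 ± 0.03 for the brightest probes. Within chromosome 13 the ratio fell with regional GC content as it did elsewhere, from 0.20 in the lowest class to 0.07 in the highest, where other autosomes went from 0.06 to -0.11. The share of probes well above background on every array was 82.0% on chromosome 13 and on the other autosomes alike. The tenth of chromosome 13 probes with the lowest ratios had a share of 60.6%, so low single-probe ratios fell more often on dim probes. In the sample channel 155 probes were dim, meaning not well above background, on every array, and in the pool channel 48 were.

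**Figure D4:**
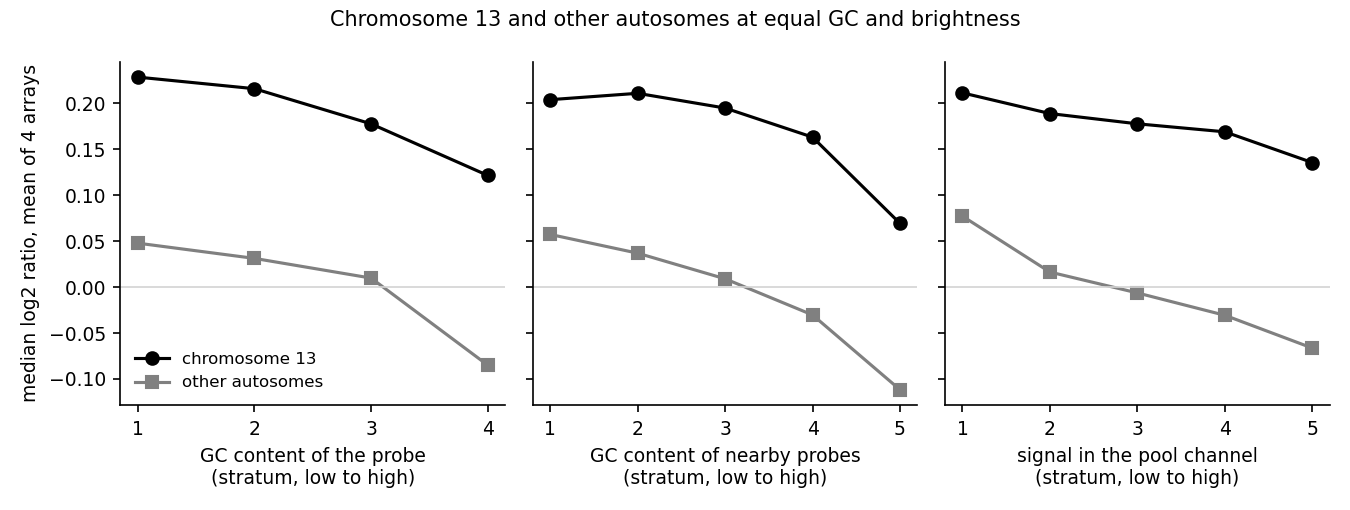
Median log2 ratio (vertical axis, mean of 4 arrays) of chromosome 13 probes (black) and other autosomal probes (grey) in classes of probe GC content, GC content of nearby probes and pool signal (horizontal axes, low to high). The black line lies above the grey line in every class, by 0.13 to 0.21.

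Gene by gene, higher values outnumbered lower ones. A gene was called at a limma adjusted p under 0.05 over 20473 autosomal genes together with a mean log2 ratio of 0.25 or more in size. Of the 798 genes of chromosome 13, 264 were higher (33.1%), where 16.1% of all autosomal genes were, and 58 were lower (7.3%), where 19.2% of all were. The remaining 476 did not pass. The median over chromosome 13 genes was 0.17, against -0.01 over all genes. Of the 210 genes with at least 3 probes, 69 were higher and 4 lower, where 12.6% and 12.3% of all such genes were. On chromosome 8, 30.2% of genes were higher, and on chromosome 14 25.9%. A gene is short beside the chromosome and 331 of the 798 rested on 1 probe, so the values of single genes do not mark separate copy number events. On data simulated with known changes, 50% of the genes changed by 0.5 were recovered, and none of those changed by 0.25. Far fewer genes were changed there than were called in the data, which makes the adjusted p harder to pass. A change of 0.25 also sits at the size limit itself. These shares therefore do not give the recovery in the data.

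Among genes with at least 3 probes, Larp4b, an RNA-binding protein gene, had the highest mean and the least spread among the first few. It read 0.70, 0.65, 0.66 and 0.69, a mean of 0.68 ± 0.03 (SD, n = 4; limma adjusted p 0.0011). Atxn1, the gene of the polyglutamine protein ataxin-1, had a mean of 0.66 ± 0.20, with probe means from 0.06 to 1.36. The gene 0610007P08Rik had the most probes in this group, 12, all with means above 0, and read 0.55, 0.46, 0.64 and 0.56 (mean 0.55 ± 0.07). Zfp192 (0.57), Arid4b (0.54), a chromatin regulator gene, Prl2a1 (0.50), Ofcc1 (0.50), Ttc37 (0.49) and Ero1lb (0.47), an oxidase gene of the endoplasmic reticulum, were also higher. These genes were chosen for being called with 1 sign on every array, so their agreement in sign over the arrays is no result.

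Naip5, a sensor of bacterial flagellin in the mouse, passed with 0.66, 0.40, 0.06 and 0.81 (mean 0.48 ± 0.33; limma adjusted p 0.025). Of its 3 probes, 1 was dim in both channels on every array, and without such probes the mean was 0.06. The call was also lost without replicate 1, 2 or 4. It has near-identical copies beside it on the chromosome, so its probes may read more than 1 gene. Of the 4 lower genes with at least 3 probes, 3 were named after allowing 1 gene per Mb. Cdhr2, a protocadherin of the epithelial brush border, read -0.87, -0.92, -0.36 and -0.36 (mean -0.63 ± 0.31), with both slide 1 arrays far below both slide 2 arrays. Pdlim7, a cytoskeletal scaffold gene, read -0.47, -0.52, -0.54 and -0.55 (mean -0.52 ± 0.04), and Itga2, which encodes the integrin alpha-2 subunit, had a mean of -0.39 ± 0.15. Under normexp Itga2 was at -0.20 and, with probes well above background only, at -0.24, both under the size limit. Cdhr2 and Pdlim7 lie in the low stretch near the middle of the chromosome.

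**Figure D5:**
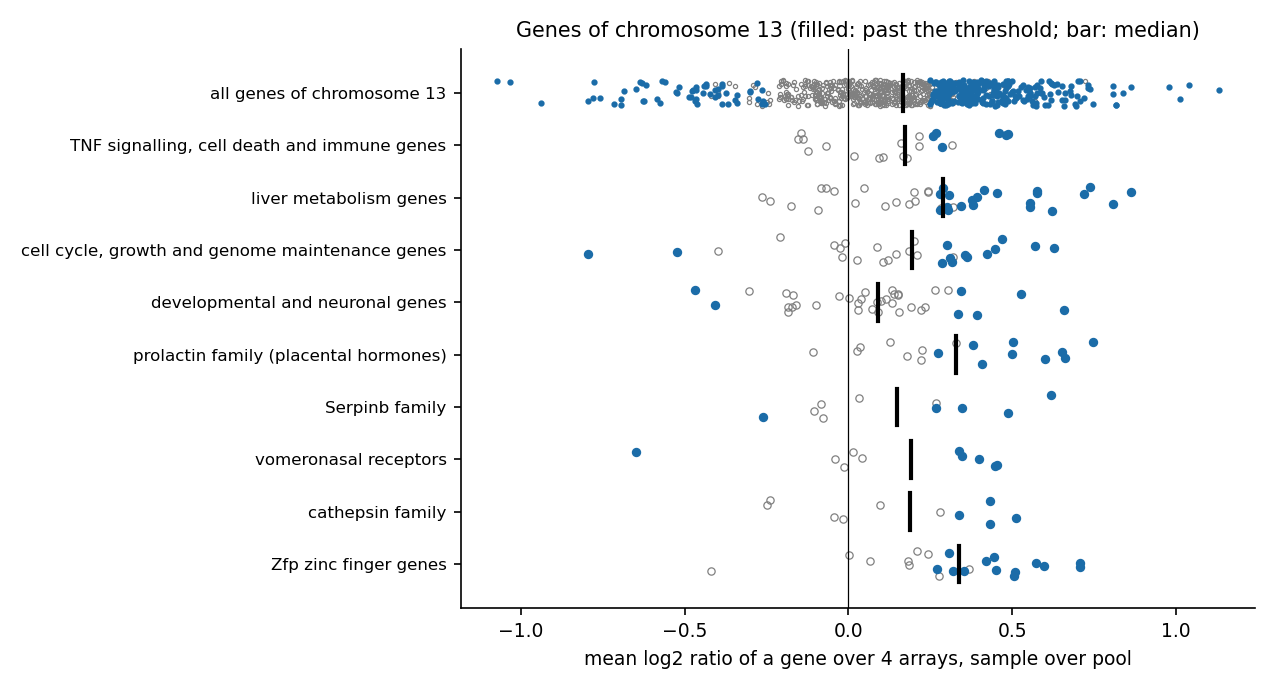
Mean log2 ratio over 4 arrays (horizontal axis, sample over pool) of each chromosome 13 gene, for all 798 genes and for the 9 lists (vertical axis), with filled points for genes past the threshold and black bars for medians. The medians lie between 0.09 for the developmental and neuronal genes and 0.34 for the Zfp genes.

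Ripk1, which encodes the kinase that links TNF receptor signalling to cell death through RIP3, was covered by a pair of probes.
Ripk1, chr13:34113270-34113329: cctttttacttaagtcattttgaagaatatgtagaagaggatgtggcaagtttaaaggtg
Ripk1, chr13:34124337-34124396: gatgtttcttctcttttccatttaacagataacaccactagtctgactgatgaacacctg
The first read 0.64, 0.70, 0.84 and 0.68 and the second -0.02, -0.15, 0.45 and 0.53. The first was high on all arrays, and the second was above 0 on slide 2 alone. The gene read 0.31, 0.28, 0.65 and 0.61, a mean of 0.46 ± 0.19 (SD, n = 4; limma adjusted p 0.0087), and both slide 2 arrays were above both slide 1 arrays. Of the 24 genes listed for TNF signalling, cell death and immunity, 20 had probes, 6 were higher and none was lower. None was below 0 at an unadjusted limma p under 0.05. The share of 30% was near the 33.1% of the chromosome's genes, of which 7.3% were lower, and both medians were 0.17 after rounding. Besides Ripk1 and Naip5, the higher genes were Serpinb9 (0.49 ± 0.22), an inhibitor of granzyme B, Erap1 (0.28 ± 0.11), a peptidase that trims antigens for presentation, Serpinb6a (0.27) and Map3k1 (0.26), a kinase of stress signalling. The count was not robust to single arrays: it was 3 without replicate 1, 3 without replicate 3 and 2 without replicate 4. Erap1 lost its call without replicate 1, 3 or 4.

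Tert was also covered by a pair of probes.
Tert, chr13:73765173-73765225: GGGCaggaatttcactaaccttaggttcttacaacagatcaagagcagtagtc
Tert, chr13:73771696-73771750: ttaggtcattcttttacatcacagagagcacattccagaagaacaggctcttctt
The first read 0.47, 0.26, 0.25 and 0.26 and the second 0.32, 0.25, 0.32 and 0.16, and no value was below 0. The gene read 0.40, 0.25, 0.28 and 0.21, a mean of 0.28 ± 0.08 (limma adjusted p 0.016). With background correction by normexp the mean was 0.14, under the size limit, and the GC-corrected mean was 0.46. The call was also lost when each slide counted as 1 sample (limma adjusted p 0.070), without replicate 1 (0.059) and without replicate 3 (0.0501). Of the 28 measured genes of the cell cycle, growth and genome maintenance (30 listed), 11 were higher (39.3%) and 2 were lower (7.1%), with a median of 0.19. These shares were near the 33.1% and 7.3% of all chromosome 13 genes. Rreb1 (0.63 ± 0.12) and Id4 (0.57 ± 0.18), both transcriptional regulators, and Ptch1 (0.47), the Hedgehog receptor, were higher, as were the DNA repair genes Xrcc4 (0.42), Msh3 (0.36) and Ercc8 (0.35). Klf6, a tumour suppressor transcription factor, read -0.46, -1.02, -0.69 and -1.01 (mean -0.79 ± 0.27), and Ccnb1, the mitotic cyclin B1, had a mean of -0.52 ± 0.22. Rreb1, Id4, Klf6 and Ccnb1 each rested on 1 probe. The count of higher genes was 7 without replicate 1, 6 without replicate 3 and 5 without replicate 4, and 6 after GC correction.

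Nnt, a mitochondrial transhydrogenase gene of which a commonly used C57BL/6J substrain is known to lack several exons, had 6 probes near the distal end.
Nnt, chr13:120182462-120182521: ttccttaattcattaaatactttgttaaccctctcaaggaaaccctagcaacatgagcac
Nnt, chr13:120158779-120158829: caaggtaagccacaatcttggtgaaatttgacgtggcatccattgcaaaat
Nnt, chr13:120171758-120171817: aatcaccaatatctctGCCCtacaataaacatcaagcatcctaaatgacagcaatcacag
Nnt, chr13:120187679-120187738: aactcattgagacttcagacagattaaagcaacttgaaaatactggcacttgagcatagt
Nnt, chr13:120137221-120137280: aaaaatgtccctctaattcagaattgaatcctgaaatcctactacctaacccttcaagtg
Nnt, chr13:120193745-120193804: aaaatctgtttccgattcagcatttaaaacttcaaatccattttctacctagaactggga
The gene read -0.06, 0.01, -0.16 and -0.07, a mean of -0.07 ± 0.07 (limma adjusted p 0.41), below the chromosome's median on every array. Its probe means ran from 0.39 down to -0.38. The lowest probe was well above background in the sample channel on 1 array only, and 5 of the 6 were well above it in both channels throughout.

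Of 39 measured genes of liver metabolism (41 listed), 21 were higher (53.8%), beside 33.1% of chromosome 13 genes and 16.1% of all genes, and the difference between these shares was not tested. None was lower, beside 7.3% of chromosome 13 genes, with 1 below 0 at an unadjusted limma p under 0.05. The list's median was 0.29, and the median over the chromosome's genes was 0.17. Akr1c20, of the aldo-keto reductase family that handles steroids, read 1.04, 0.91, 0.74 and 0.76 (mean 0.86 ± 0.14; limma adjusted p 0.0011). Elovl2, an elongase of polyunsaturated fatty acids, read 0.74, 0.81, 0.90 and 0.79 (mean 0.81 ± 0.07; limma adjusted p 8.7e-04). Both were far above 0 on all arrays, and Akr1c20 rested on 1 probe. Akr1c13 (0.72 ± 0.14) was likewise higher, and neighbouring Akr1c genes may share probes through their similarity. Slc17a3, a urate and phosphate transporter gene, had 0.59, 0.23, 1.56 and 0.57 (mean 0.74 ± 0.58). Of its 2 probes, 1 was dim in both channels on every array, and the mean without it was 0.35. The call was lost without replicate 1 or 4. Idi1 (0.58) of isoprenoid synthesis and Fbp1 (0.41) of gluconeogenesis were higher too. Bhmt, which remethylates homocysteine, had 0.15 and did not pass. The count of higher genes was 15 to 22 under the alternatives, and 1 or 2 genes were lower under 5 of them.

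The gene clusters were counted by family, and Serpinb6a, Serpinb9 and Ctsl stand in an earlier list as well. Of 17 prolactin family genes, which encode pituitary prolactin and placental hormones, 9 were higher (52.9%, beside 33.1% of all chromosome 13 genes). None was lower (beside 7.3%), also at an unadjusted limma p under 0.05, and the median was 0.33. Prl read 0.59, 0.58, 0.66 and 0.77 (mean 0.65 ± 0.09) and Prl2c1 had a mean of 0.66 ± 0.08, with all arrays close together. Prl4a1 read 0.11, 1.17, 0.80 and 0.90 (mean 0.75 ± 0.45), and Prl8a8 read 0.20, 0.11, 0.98 and 1.1 (mean 0.60 ± 0.51), with slide 2 above slide 1. The call of Prl8a8 was lost when each slide counted as 1 sample (limma adjusted p 0.077), on centring on the mode (0.051), after GC correction (0.057) and without replicate 3 (0.13) or 4 (0.12). Of 22 Zfp genes, which encode zinc finger proteins, 13 were higher (59.1%, beside the same 33.1%). None was lower (beside the same 7.3%), also at an unadjusted limma p under 0.05, and the median was 0.34. The differences of both families from the chromosome's shares were not tested. Zfp748 (0.71 ± 0.11), Zfp458 (0.71 ± 0.16) and Zfp455 (0.60 ± 0.12) lie beside each other at 67 Mb. Zfp458 and Zfp455 each rested on 1 probe. Members of each of these families resemble each other in sequence, so a probe may read more than its named gene.

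Of 10 Serpinb genes, intracellular inhibitors of serine proteases, 4 were higher and 1 was lower, with a median of 0.15, which is near the chromosome's shares of 33.1% and 7.3%. Under normexp 2 were higher, and 4 of the 10 rested on 1 probe, among them Serpinb1b. Serpinb9b had a mean of 0.62 ± 0.07 and Serpinb1b of 0.35 ± 0.09, while Serpinb1a had -0.26. It was the lower gene, and no gene of the family was lower under normexp, in the deposited log2 table, with slide means as samples or without replicate 1, 2 or 3. Of 10 vomeronasal receptor genes, 5 were higher and 1 was lower, with a median of 0.19, and the higher genes numbered 2 without replicate 1 and 3 without replicate 2 or 3. The chromosome's shares were 33.1% higher and 7.3% lower. Of these 10 receptor genes, 9 rested on 1 probe, including those named next. Vmn1r202 (0.45 ± 0.11) and Vmn1r-ps103 (0.40 ± 0.22) were above 0 on all arrays, whereas Vmn1r203 read -0.09 on replicate 4 and was well above background on 3 arrays only. Vmn1r203 lost its call without replicate 1, 2 or 3, and Vmn1r-ps103 without replicate 1 or 2. Vmn1r195, in the same cluster, read -0.84, -0.78, -0.87 and -0.11 (mean -0.65 ± 0.36). Of 10 cathepsin genes, most of them proteases of the mouse placenta, 4 were higher, a share near the chromosome's 33.1%, and 2 were without replicate 4. None was lower, beside the chromosome's 7.3%, also at an unadjusted limma p under 0.05, and the median was 0.19. Of the 10 cathepsin genes, 9 rested on 1 probe, among them Ctsr, Ctsj, Ctsq and Cts7. Ctsr had 0.51 ± 0.06, Ctsj 0.43 ± 0.15 and Cts7 0.34 ± 0.27, and Ctsq (0.43 ± 0.29) was well above background in both channels on 1 array only. Cts7 lost its call under normexp, on centring on the mode, after GC correction, with slide means as samples and without replicate 2, 3 or 4, and its mean was 0.22 without replicate 3. Ctsq lost its call without replicate 1 or 4.

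Of 37 measured developmental and neuronal genes (40 listed), 5 were higher (13.5%) and 2 were lower (5.4%), with a median of 0.09, beside 33.1% and 7.3% of all chromosome 13 genes. The balance turned after GC correction, with 4 higher and 5 lower. Under normexp 6 were higher and 5 lower, without replicate 4 only 3 were higher, and the lower genes numbered 1 without replicate 1 and none without replicate 2 or with slide means as samples. Foxc1, a forkhead factor of mesenchymal development, read 0.60, 0.08, 0.66 and 0.78 (mean 0.53 ± 0.31; call lost without replicate 1, 3 or 4), and Gpr98 (0.34) and Hapln1 (0.34) were among the higher genes with Atxn1. Cartpt, a neuropeptide gene, read -0.72, -0.80, -0.08 and -0.26 (mean -0.47 ± 0.35). Gcm2, the factor that specifies the parathyroid, read -0.64, -0.64, -0.15 and -0.19 (mean -0.41 ± 0.27). In both, slide 1 lay below slide 2, and neither was called with slide means as samples or without replicate 1 or 2. The pool had the same slide split in its chromosome 13 median, given above, and its part in the values of these genes was not tested. Foxc1, Cartpt and Gcm2 each rested on 1 probe. The longest-covered genes of the list were Pde4d, at 0.15 over 16 probes, and Mctp1, at 0.09 over 9, beside the list's median of 0.09.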

How the data were processed

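The deposited intensity values are Agilent Feature Extraction 10.10.1.1 processed signals, background-subtracted and dye-normalised per the file headers, with probe positions on mm9. The deposited log10 ratio column served only as a check and matched the ratios taken here. The deposited table of log2 values was an alternative: its columns correlated with the same array's ratios at 0.91 to 0.92, had medians of -0.04, 0.03, 0.05 and 0.01, and its normalisation stays unknown. Outlier spots and controls were removed (2 to 8 of 2404 chromosome 13 spots an array), spots of a probe averaged and each array centred on its autosomal median. No chromosome 13 spot was saturated. On chromosome 13, 84.7% to 89.9% of sample-channel spots and 92.6% to 97.3% of pool-channel spots stood well above background, and the number of arrays limits the precision.

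Window medians (at least 10 probes), gene means and chromosome medians were tested against 0 with limma 3.58.1 in R 4.3.3, with Benjamini-Hochberg adjustment over all autosomal features. The script was tested on simulated data. Named genes were Ripk1, Tert and Nnt, the 10 highest and lowest called genes that had 3 or more probes and kept 1 sign on every array (1 per Mb), and up to 4 called members of each list by absolute mean; named windows were the 3 highest and lowest, and other genes given by their mean were chosen after their values were seen. Members and lists were chosen with earlier results of these data known. Of 798 gene names, 551 are symbols and 51 are synonyms in RefSeq's GRCm38 table, from which only names were taken. No mm9 gene models were used. Alternatives were only probes well above background, normexp, intensity loess, the deposited table, centring on the mode or without chromosome 13, a GC correction, Hist1h probes kept, other window widths, slide as block or as mean, and each replicate left out. The comparison by channel was added after the slide difference was seen.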

Additional observations from a re-analysis of the deposited data

Results flagged for a closer look

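Of 73 values given by array (windows and named genes of chromosome 13), 3 had 1 array far from the other 3 by Dixon's criterion, and chance flags about 1 in 20 groups. Serpinb6a read 0.132 on replicate 1, below the other 3 arrays. Vmn1r195 read -0.113 on replicate 4, above the others. Window 1 read 0.280 on replicate 4, above the others.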

How the results depend on the processing

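The median of chromosome 13 kept its direction and call under 15 alternatives, from 0.13 (normexp) to 0.20 (the deposited log2 table), and from 0.17 to 0.19 with each replicate left out. No window was lower under any of 16 alternatives. Windows higher numbered 20 to 23 of 25 at the main width, 50 of 58 at 2 Mb and 12 of 13 at 10 Mb. Genes higher numbered 187 to 277, where 10.8% to 18.3% of all genes were higher. Genes lower numbered 37 to 61, where 14.3% to 21.3% of all genes were lower, with 37 without replicate 2 and 37 to 51 with each replicate left out. Among genes with at least 3 probes, a smaller set, 69 were higher and 4 lower, where 12.6% and 12.3% of all such genes were. The difference from chromosome 14 kept its size of 0.063 but lost its call when each slide's mean stood for 1 sample (limma adjusted p 0.105) and with the slide as a random block (0.117), and it was 0.049 to 0.076 with a replicate left out, losing the call without replicate 3 (0.0599); the cause was not tested. The difference from chromosome 8 was never called and lay between 0.0002 and 0.031. The slide difference was called under all 8 alternatives run on it, from 0.037 (normexp) to 0.091 (centred on the mode). Over 47 named genes and 14 alternatives, none reversed, 61 results lost their call, and Nnt was at 0.0044 after GC correction. Among the list counts recomputed, 32 moved by over 1.5 times. No paired analysis was possible because there was only 1 group. Single genes are limited by their number of probes, with 331 of 798 resting on 1 probe, and by the number of arrays.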
